A study of Homo sapiens with 12 samples.

Results

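A set of 10 genes of the G1 phase of the cell cycle was followed in RNA-seq data from MDA-MB-231 cells: the CDK inhibitors CDKN1A, CDKN1B, CDKN1C, CDKN2B, CDKN2C and CDKN2D, the transcription factor MYC, the D-type cyclins CCND1 and CCND3, and the phosphatase CDC25A. They were chosen by gene symbol, with earlier results of these data known, as the classical genes through which TGFβ slows the cell cycle. Of the 10 genes named, 9 had a row in the files used here and all 9 were among the 18579 genes tested, of 19907 symbols listed. CDKN2B was not analysed here.

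MDA-MB-231 is an established line of mesenchymal, triple-negative breast cancer (TNBC) cells that express the glucocorticoid receptor (GR). Libraries came from 4 groups of 3 replicates: wt-GR cells under vehicle, wt-GR cells under TGFβ1, S134A-GR cells under vehicle and S134A-GR cells under TGFβ1. S134A-GR cells (clone #1) carry a CRISPR knock-in in both alleles of NR3C1 that replaces Ser134 of GR with alanine, and wt-GR cells are a clone from the same procedure in which GR was left unedited. Because each line grew from a single cell, the genotype and the clone cannot be told apart. Before treatment all 12 samples spent 18 h in medium with 1% DCC, a serum stripped with charcoal, and treatment with 10 ng/mL TGFβ1 or its vehicle lasted 6 h. Nothing states that replicates came from separate cultures, so p-values measure only the spread between these libraries. The knock-in changes a codon and not a level, so expression cannot check the genotype labels. Among the markers checked, the mesenchymal genes VIM and AXL were at 419832 to 533198 and 110062 to 124924 normalized counts. ESR1 did not exceed 7.32 normalized counts in any library and CDH1 did not exceed 12.5. Other epithelial or breast markers were above that level, with ERBB2 at 7229 to 10589, GATA3 at 688 to 1183 and EPCAM at 318 to 1093. Among markers of other cells, CD68 (blood) was at 26579 to 42856, and PECAM1 and VWF (endothelium) at 746 to 1454 and 161 to 414. PTPRC, ALB, COL3A1, DCN and LUM did not exceed 17.2.

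Cyclins of the D type bind CDK4 or CDK6 and start the phosphorylation of RB, which frees E2F factors to switch on the genes of S phase. Inhibitors of the INK4 family (CDKN2B, CDKN2C and CDKN2D) bind CDK4 and CDK6, whereas the CIP/KIP inhibitors (CDKN1A, CDKN1B and CDKN1C) bind cyclin-CDK complexes, those of CDK2 above all. CDC25A removes inhibitory phosphates from CDK2, and MYC drives growth and represses CDKN1A and CDKN2B. In epithelial cells, TGFβ is known for raising CDKN2B and CDKN1A and for lowering MYC and CDC25A, and many carcinoma cells no longer arrest in response to it.

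Values are normalized counts, that is, reads per gene divided by the size factor of the library. The 12 libraries held 56362036 to 129832227 reads, and a level of 3 reads corresponded to 2.15 to 4.89 normalized counts, a floor that covers counting error only. All of these totals exceed the average number of reads per sample that the authors state, and the reason was not tested. Fold changes are of log2(normalized count + 1), tested with limma over all genes with Benjamini-Hochberg adjustment, and a gene was called at an adjusted p (FDR) under 0.05. The treatment was checked on 6 known TGFβ1 target genes, also chosen with earlier results of these data known, and all of them were called higher in both lines. Their median log2 fold change was 1.82 for wt-GR and 1.41 for S134A-GR. Of these genes, JUNB and PMEPA1 rose less in S134A-GR cells, as given with the flagged results below. At an unadjusted p under 0.05 by limma, 4 of the 6 had a smaller response in S134A-GR cells. Under TGFβ1, 4 were called lower in S134A-GR than in wt-GR cells by limma. This number was 5 with edgeR, DESeq2 and limma-voom, and 3 with libraries scaled to their totals. SMAD7, a feedback inhibitor of the pathway, rose by 1.19 on the log2 scale for wt-GR and 1.32 for S134A-GR (limma adjusted p = 1.49e-08 and 6.47e-09), and SKIL, another, rose by 1.62 and 1.51 (adjusted p = 6.36e-11 and 1.74e-10).

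The promoters of 3 members are shown. CDKN1A rose the most of the members under TGFβ1, whereas CDKN1B and CDC25A were lower in both lines. The fall of CDC25A was called in wt-GR cells alone, but its response was not called different between the lines (limma adjusted p = 0.943). The promoters of CDKN2C, which fell more than these in both lines, are not shown. Each run is the 250 bases before a start site that RefSeq gives in build GRCh38.p14, written 5′ to 3′ on the strand of the gene, with matches to the motifs below in capitals. The CDKN1A promoter lies at chr6:36678464-36678713 on the plus strand, the CDKN1B promoter at chr12:12717118-12717367 on the plus strand, and the CDC25A promoter at chr3:48188418-48188667 on the minus strand.
CDKN1A: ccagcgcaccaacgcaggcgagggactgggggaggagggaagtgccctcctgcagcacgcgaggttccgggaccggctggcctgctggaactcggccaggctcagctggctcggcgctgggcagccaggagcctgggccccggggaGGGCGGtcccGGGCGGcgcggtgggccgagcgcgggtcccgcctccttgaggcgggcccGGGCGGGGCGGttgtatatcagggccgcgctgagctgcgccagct
CDKN1B: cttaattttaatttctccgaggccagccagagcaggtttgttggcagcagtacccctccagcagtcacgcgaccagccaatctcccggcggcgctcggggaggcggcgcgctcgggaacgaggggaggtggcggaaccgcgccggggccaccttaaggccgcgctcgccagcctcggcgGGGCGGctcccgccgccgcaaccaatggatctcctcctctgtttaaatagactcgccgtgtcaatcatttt
CDC25A: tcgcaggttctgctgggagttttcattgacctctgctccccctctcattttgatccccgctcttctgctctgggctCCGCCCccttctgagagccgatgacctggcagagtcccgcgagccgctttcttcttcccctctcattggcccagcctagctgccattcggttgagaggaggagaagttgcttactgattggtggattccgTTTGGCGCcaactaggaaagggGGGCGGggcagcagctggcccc

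The capitals mark the GC box GGGCGG, bound by factors of the SP1 and KLF families, and in CDC25A also an E2F motif, TTTGGCGC. Both strands were searched. CDKN1A held 4 GC boxes, of which the pair nearest to the start site overlap by a base, CDKN1B held 1, and CDC25A held 2 beside its E2F motif. A GC box was found in 42.6% of 35116 RefSeq promoters of the same length, and TTTGGCGC in 0.55% of them. TTTGGCGC was 1 of 4 E2F variants searched, and any of the 4 was in 2.79% of these promoters. The SMAD box CAGAC, found in 38.0% of all promoters, was in none of these 3 windows. The SMAD palindrome GTCTAGAC, the AP-1 site TGACTCA and the GR half-site AGAACA were not in them either, and they occur in 0.18%, 4.2% and 12.4% of all promoters. Over the 11 promoters that the table holds for 7 of the named genes, the CAGAC box was in 2, both of CDKN2C, and the E-box CACGTG (6.34% of all promoters), which MYC binds with MAX, was also in 2 of CDKN2C. A match is a description of the letters in the window and no measure of binding.

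**Figure D1:**
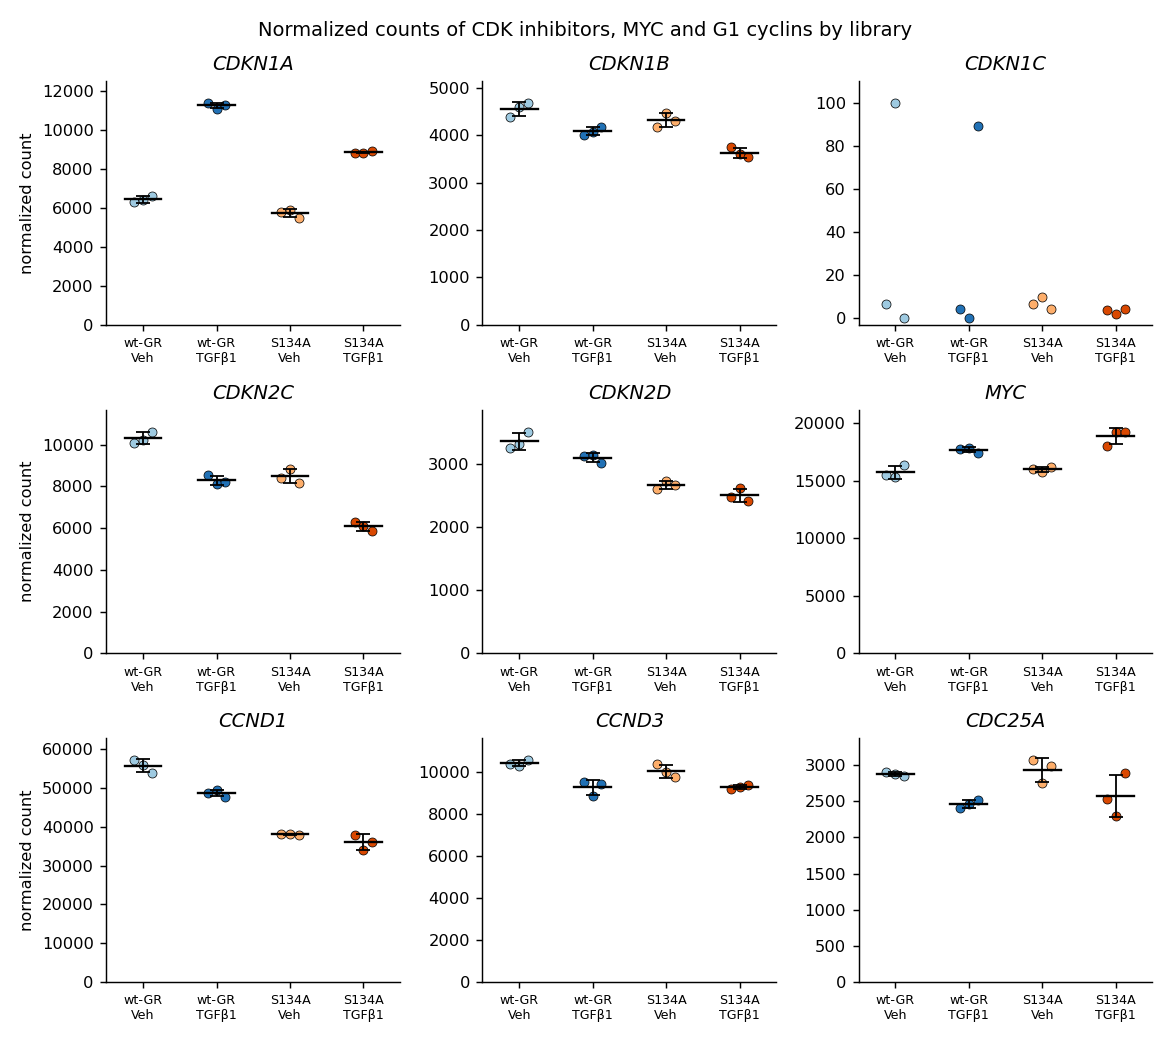
Normalized counts (y axis, from 0) of the 9 members with values in each of the 12 libraries, in 4 groups (x axis). Points are libraries, and horizontal lines with bars are the mean ± SD (n = 3), left out for CDKN1C. CDKN1A is higher in all 6 libraries under TGFβ1 (8807 to 11367) than in the 6 under vehicle (5501 to 6618), and CDKN1C stands out in only 2 wt-GR libraries.

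In wt-GR cells, TGFβ1 changed 7 of the 9 members: CDKN1A and MYC rose, and CDKN1B, CDKN2C, CCND1, CCND3 and CDC25A fell. In S134A-GR cells it changed 5: CDKN1A and MYC rose again, and CDKN1B, CDKN2C and CCND3 fell. CDKN1A moved the most, by 75.0% for wt-GR and 54.4% for S134A-GR. The largest of the other called changes was that of CDKN2C in S134A-GR cells, which fell by 28.3%, and the smallest that of CCND3 in the same line, which fell by 7.58%. Over all genes tested, 11.2% were called higher and 9.82% lower in wt-GR cells, and 10% higher and 8.69% lower in S134A-GR cells. The 2 and 5 of 9 members, and 2 and 3 of 9, were larger shares than this background in each direction. The members were chosen with earlier results of these data known, and the background includes weakly expressed genes. These shares are thus a description and no test. Called genes whose log2 fold change was 1 or more in size made up 2.29% of all genes in wt-GR cells and 1.66% for S134A-GR, and no member was among them. The median log2 fold change of the 9 members was −0.17 for wt-GR and −0.11 for S134A-GR, beside −0.0046 and −0.0097 over all genes tested. When libraries were scaled to their total reads in place of the size factors, the calls of members became 1 higher and 6 lower in the wt-GR line and 2 higher and 6 lower in the S134A-GR line. The same scaling moved all genes from 53.4% to 29.9% higher among the calls for wt-GR, and from 53.5% to 27.2% for S134A-GR.

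**Figure D2:**
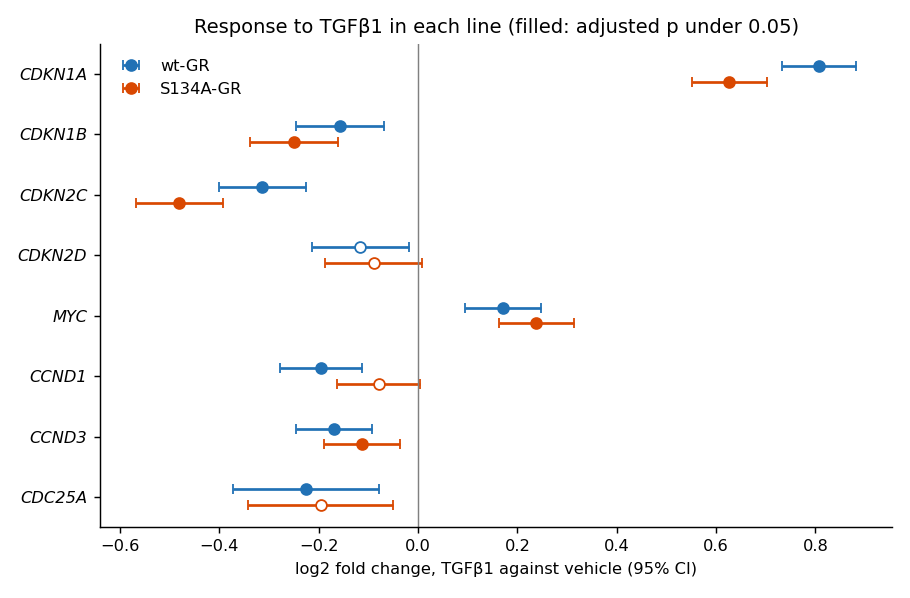
Log2 fold change of TGFβ1 against vehicle (x axis) for 8 members (y axis) in wt-GR cells (blue) and S134A-GR cells (orange), with 95% confidence intervals from limma. Filled points have an adjusted p under 0.05. CDKN1A lies at 0.81 and 0.63, MYC at 0.17 and 0.24, and the other members lie below 0 in both lines. CDKN1C is left out because its interval spans −3.46 to 3.04 in wt-GR cells.

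CDKN1A encodes p21, the CIP/KIP inhibitor that p53 also induces, and lies on the plus strand of chromosome 6 from 36676460 to 36687337 (GRCh38, GENCODE 44). Under vehicle its normalized counts were 6281, 6385 and 6618 in the wt-GR libraries, and under TGFβ1 they were 11367, 11086 and 11295. The S134A-GR libraries held 5797, 5886 and 5501 under vehicle and 8807, 8825 and 8892 under TGFβ1. No group overlapped another: the wt-GR libraries under TGFβ1 were the highest and the S134A-GR libraries under vehicle the lowest. The response to TGFβ1 was a log2 fold change of 0.81 for wt-GR (SE 0.035, limma adjusted p = 8.95e-10), a 1.75-fold rise with a 95% interval of 1.66 to 1.84. In S134A-GR cells it was 0.63 (adjusted p = 1.47e-08), a 1.54-fold rise with an interval of 1.47 to 1.63. Of the 11649 genes whose log2 CPM averaged 1 or more, 133 rose more in wt-GR cells and 168 rose more in S134A-GR cells. Of its exon bases, 4.87% also belong to the antisense RNA DINOL, and reads of CDKN1A and DINOL cannot be told apart without strand information.

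The genes whose 4 group means followed CDKN1A most closely were SPSB1, TSPAN12 and TGFBI. The likeness was measured over the 12 libraries as the root mean square difference between group means of log2(normalized count + 1), each gene centred on its own mean, and it was 0.038, 0.048 and 0.048. SPSB1 responded by 0.82 on the log2 scale for wt-GR and 0.52 for S134A-GR, TSPAN12 by 0.68 and 0.59, and TGFBI by 0.86 and 0.72.

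CDKN1B encodes p27, which holds cyclin E-CDK2 inactive in resting cells, and lies on the plus strand of chromosome 12 from 12685498 to 12722369. Its normalized counts in wt-GR cells were 4391, 4598 and 4680 under vehicle and 4009, 4065 and 4178 under TGFβ1. In S134A-GR cells they were 4169, 4464 and 4312 under vehicle and 3746, 3600 and 3535 under TGFβ1. The groups did not overlap within either line, and the fall was slight in both. CDKN1B changed by −0.16 on the log2 scale for wt-GR (SE 0.041, limma adjusted p = 0.0138) and by −0.25 for S134A-GR (adjusted p = 6.01e-04). The call in wt-GR cells was lost without vehicle replicate 2 (adjusted p = 0.0540) and without TGFβ1 replicate 1 (adjusted p = 0.0568).

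CDKN1C encodes p57, an imprinted CIP/KIP inhibitor on the minus strand of chromosome 11 from 2883213 to 2885775. The gene had at most 10 reads in 10 of the 12 libraries. Recovered reads were 4, 95 and 0 in the wt-GR vehicle libraries, 4, 0 and 88 in the wt-GR TGFβ1 libraries, 7, 10 and 5 in the S134A-GR vehicle libraries and 4, 2 and 6 in the S134A-GR TGFβ1 libraries. Vehicle replicate 2 and TGFβ1 replicate 3 of wt-GR cells thus stood apart from the replicates of their own groups. No comparison was called, with an SE of 1.51 on the log2 scale. Of the 2332 stretches of 75 bases in its exons, 83.6% also matched other scaffolds of hg38, against 0% for each of the other 8 members with values. The part of these extra copies in its counts was not tested.

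CDKN2C encodes p18, an INK4 inhibitor of CDK4 and CDK6, and lies on the plus strand of chromosome 1 from 50960745 to 50974634. In wt-GR cells its normalized counts were 10057, 10225 and 10619 under vehicle and 8545, 8112 and 8200 under TGFβ1. The S134A-GR libraries held 8410, 8846 and 8174 under vehicle and 6290, 6085 and 5851 under TGFβ1. The S134A-GR libraries under TGFβ1 lay below all the others, and the wt-GR vehicle libraries lay above all the others. Under TGFβ1 the log2 fold change of CDKN2C was −0.31 for wt-GR (SE 0.041, limma adjusted p = 6.65e-05) and −0.48 for S134A-GR (adjusted p = 1.23e-06), so its level differed by −19.6% and −28.3%. Among the 11649 genes above, 828 fell more in wt-GR cells and 350 fell more in S134A-GR cells. An unnamed antisense RNA shares 20.4% of its exon bases.

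CDKN2D encodes p19, the other INK4 inhibitor with values, and lies on the minus strand of chromosome 19 from 10566460 to 10569059. Its normalized counts in wt-GR cells were 3254, 3322 and 3517 under vehicle and 3133, 3153 and 3019 under TGFβ1. In S134A-GR cells they were 2605, 2727 and 2666 under vehicle and 2487, 2622 and 2411 under TGFβ1. The vehicle and TGFβ1 libraries of S134A-GR cells overlapped, and neither response was called. For wt-GR the log2 fold change was −0.12 (95% interval −0.21 to −0.019, limma adjusted p = 0.0885) and for S134A-GR it was −0.089 (interval −0.19 to 0.0083, adjusted p = 0.209). With libraries scaled to their totals both were called, at −0.18 (adjusted p = 0.0115) and −0.16 (adjusted p = 0.0258).

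CDKN2B itself was not analysed here. Of 10 genes listed as its neighbours on the short arm of chromosome 9, 3 had a row: KLHL9 was listed at 0 in all 12 libraries, FOCAD was at 300 to 411 normalized counts, and MLLT3 was at 960 to 1793. MLLT3 was lower in S134A-GR cells under both treatments, with a log2 fold change of −0.52 (limma adjusted p = 3.34e-06) under vehicle and −0.80 (adjusted p = 6.01e-08) under TGFβ1. Of 10 genes listed as neighbours of CDKN1C, 7 were tested, and between the lines under vehicle 3 were higher in S134A-GR cells by limma, beside 25% of all genes: NAP1L4 (log2 fold change 1.03), the imprinted RNA KCNQ1OT1 (0.77) and CD81 (0.15). The count was 2 with edgeR, DESeq2 and limma-voom, and 2 without wt-GR vehicle replicate 1 or 2, wt-GR TGFβ1 replicate 3 or S134A-GR vehicle replicate 1. Under TGFβ1, KCNQ1OT1 (1.01) and CD81 (0.14) were higher in S134A-GR cells and SLC22A18 was lower (−0.46).

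MYC rose under TGFβ1 in both lines. Normalized counts of MYC in wt-GR cells were 15553, 15308 and 16343 under vehicle and 17756, 17899 and 17456 under TGFβ1. The S134A-GR libraries held 16031, 15785 and 16183 under vehicle and 18073, 19287 and 19276 under TGFβ1. Every TGFβ1 library was above every vehicle library of either line. On the log2 scale MYC changed by 0.17 for wt-GR (SE 0.035, limma adjusted p = 0.00312) and by 0.24 for S134A-GR (adjusted p = 2.57e-04), a rise of 12.6% and 17.9%. With libraries scaled to their totals, the rise in wt-GR cells was 0.11 and was no longer called (adjusted p = 0.0577). The antisense RNA CASC11 shares 3.18% of the exon bases of MYC.

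CCND1, the cyclin D1 gene on the plus strand of chromosome 11 from 69641156 to 69654474, had the most reads of the members. Its normalized counts in wt-GR cells were 57198, 56050 and 53898 under vehicle and 48747, 49406 and 47778 under TGFβ1. For S134A-GR they were 38077, 38245 and 37915 under vehicle and 37995, 34055 and 36167 under TGFβ1. The groups were apart in wt-GR cells, whereas S134A-GR TGFβ1 replicate 1 lay within the vehicle range of its line. CCND1 changed by −0.20 on the log2 scale for wt-GR (SE 0.039, limma adjusted p = 0.00227) and by −0.080 for S134A-GR (95% interval −0.16 to 0.0038, adjusted p = 0.187). Scaled to library totals, the change in S134A-GR cells was −0.15 and was called (adjusted p = 0.0105). The gene LTO1 on the opposite strand shares 10.4% of the exon bases.

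CCND3, the cyclin D3 gene, lies on the minus strand of chromosome 6 from 41934934 to 42050357. Normalized counts of CCND3 in wt-GR cells were 10423, 10297 and 10588 under vehicle and 9524, 8883 and 9438 under TGFβ1. For S134A-GR they were 10380, 10006 and 9785 under vehicle and 9193, 9291 and 9392 under TGFβ1. Within each line, all vehicle libraries were above all TGFβ1 libraries. The change of CCND3 was −0.17 on the log2 scale for wt-GR (SE 0.036, limma adjusted p = 0.00338) and −0.11 for S134A-GR (adjusted p = 0.0386). The call in S134A-GR cells was lost without wt-GR vehicle replicate 2, without S134A-GR vehicle replicate 1 or 2, and without any of the S134A-GR TGFβ1 replicates, with adjusted p from 0.0539 to 0.167.

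CDC25A lies on the minus strand of chromosome 3 from 48157146 to 48188417. Its normalized counts in wt-GR cells were 2908, 2881 and 2850 under vehicle and 2404, 2465 and 2522 under TGFβ1. In S134A-GR cells they were 3073, 2754 and 2992 under vehicle and 2538, 2297 and 2888 under TGFβ1. S134A-GR TGFβ1 replicate 3 lay within the vehicle range of its line. On the log2 scale CDC25A changed by −0.23 for wt-GR (SE 0.068, limma adjusted p = 0.0302) and by −0.20 for S134A-GR (95% interval −0.34 to −0.050, adjusted p = 0.0613). The call in wt-GR cells was lost without vehicle replicate 1 or 2 and without any of the TGFβ1 replicates, with adjusted p from 0.0553 to 0.101. In S134A-GR cells the change was called without vehicle replicate 2 (−0.24, adjusted p = 0.0461), without TGFβ1 replicate 3 (−0.28, adjusted p = 0.00487), with DESeq2 (−0.19, adjusted p = 0.0390) and with totals (−0.26, adjusted p = 0.0156).

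Whether the response itself differed between the lines was tested as an interaction, with the wt-GR response subtracted from the S134A-GR response. None of the 9 members was called by limma, beside 0.414% of all genes called in either direction and 0.0592% whose called difference was 1 or more in size on the log2 scale. At an unadjusted p under 0.05 there were 2 members, CDKN1A and CDKN2C, and edgeR, DESeq2 and limma-voom on the recovered reads also called 0 members. The difference for CDKN1A was −0.18 (95% interval −0.29 to −0.075, adjusted p = 0.218), with an adjusted p of 0.0683 to 0.480 over 23 alternative settings. For CDKN2C it was −0.17 (interval −0.29 to −0.042, adjusted p = 0.369). For CCND1, whose fall was called in wt-GR cells alone, the difference was 0.12 (interval −0.0019 to 0.23, adjusted p = 0.543). MYC differed by 0.068 (interval −0.040 to 0.18), CDKN1B by −0.093 (interval −0.22 to 0.033), CCND3 by 0.056 (interval −0.052 to 0.16), CDKN2D by 0.027 (interval −0.11 to 0.17) and CDC25A by 0.029 (interval −0.18 to 0.24). For none of the 9 members was the response thus shown to differ after adjustment, nor was it shown to be alike beyond the intervals given.

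Between the lines, the members that differed were lower in S134A-GR cells, with MYC under TGFβ1 as the exception. Under vehicle, CDKN1A, CDKN2C, CDKN2D and CCND1 were lower in S134A-GR cells, 4 of 9. Under TGFβ1 these 4 and CDKN1B were lower, and MYC was slightly higher. The lines differed widely, with 26.5% of all genes lower and 25% higher in S134A-GR cells under vehicle, and 25.7% lower and 23.1% higher under TGFβ1. The count of members called lower was thus above the background share and the count called higher below it. These shares too are a description and no test, because the members were chosen with earlier results of these data known. Called differences of 1 or more on the log2 scale made up 9.51% of all genes under vehicle and 8.46% under TGFβ1, and included no member. The median of the 9 members was −0.17 under vehicle and −0.31 under TGFβ1, beside 0.019 and 0.012 over all genes. No member was higher under vehicle by limma at an unadjusted p under 0.05, nor was any called higher by edgeR, DESeq2 or limma-voom. With libraries scaled to their totals, 1 member was called higher and 3 lower under vehicle, and all genes went from 48.6% to 59.7% higher among the calls. Under TGFβ1, scaling to totals gave 1 member higher and 4 lower, TMM scaling gave 0 higher and 5 lower, and with totals all genes went from 47.4% to 59% higher.

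Under vehicle, CCND1 differed the most between the lines of the 8 members other than CDKN1C, whereas under TGFβ1 CDKN2C differed slightly more (−0.45, against −0.43 for CCND1). Under vehicle the mean was 55716 ± 1675 (SD, n = 3) normalized counts for wt-GR and 38079 ± 165 for S134A-GR, and under TGFβ1 it was 48643 ± 819 and 36072 ± 1972. S134A-GR cells differed by −0.55 on the log2 scale under vehicle (SE 0.039, limma adjusted p = 4.66e-08) and −0.43 under TGFβ1 (adjusted p = 5.17e-07), that is, by −31.6% and −25.9%. The 6 S134A-GR libraries did not reach the lowest wt-GR library under either treatment. Genes around CCND1 differed in the same direction: of the 50 tested genes nearest to it, 25 on each side, 29 were called lower in S134A-GR cells and 1 higher under vehicle, with a median log2 fold change of −0.40. Under TGFβ1, 29 were lower and 3 higher, with a median of −0.38. The copy number of the region was not measured, and its part in the difference was not tested.

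CDKN2C was at 10300 ± 289 normalized counts for wt-GR and 8477 ± 341 for S134A-GR under vehicle, and at 8285 ± 229 and 6076 ± 220 under TGFβ1. The log2 fold change between lines was −0.28 (SE 0.041, limma adjusted p = 4.70e-05) and −0.45 (adjusted p = 6.11e-07). The 50 genes around it had a median of −0.081 under either treatment, with a lower quartile of −0.34 under vehicle and −0.32 under TGFβ1. CDKN2C thus lay within the quartiles of its neighbours under vehicle and below them under TGFβ1. Of these neighbours, 20 were called lower and 7 higher in S134A-GR cells under vehicle, and 18 and 9 under TGFβ1. CDKN2D was at 3364 ± 137 and 2666 ± 60.8 under vehicle and at 3102 ± 72.5 and 2507 ± 107 under TGFβ1. Its log2 fold change was −0.33 (SE 0.045, limma adjusted p = 2.57e-05) and −0.31 (adjusted p = 6.15e-05), and its neighbours had medians of −0.032 and −0.098. The wt-GR and S134A-GR libraries of both INK4 genes did not overlap under either treatment.

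CDKN1A was at 6428 ± 172 and 5728 ± 201 normalized counts under vehicle and at 11249 ± 146 and 8841 ± 45.1 under TGFβ1. Its log2 fold change between lines was −0.17 (SE 0.035, limma adjusted p = 0.00105) and −0.35 (adjusted p = 1.57e-06). The median of its 50 neighbours was −0.25 under vehicle and −0.29 under TGFβ1, below the value of CDKN1A itself under vehicle and above it under TGFβ1. The call under vehicle was lost with libraries scaled to their totals (−0.089, adjusted p = 0.0525). CDKN1B was at 4557 ± 149 and 4315 ± 148 under vehicle (−0.079, adjusted p = 0.129) and at 4084 ± 85.8 and 3627 ± 108 under TGFβ1 (−0.17, adjusted p = 0.00319), a call also lost with totals (adjusted p = 0.0649).

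MYC was at 15734 ± 541 and 16000 ± 201 normalized counts under vehicle and at 17704 ± 226 and 18879 ± 698 under TGFβ1. The log2 fold change between lines was 0.025 (SE 0.035, limma adjusted p = 0.595) and 0.092 (adjusted p = 0.0441). With totals the difference under vehicle was called (0.10, adjusted p = 0.0342). The call under TGFβ1 was lost in 13 of 23 alternative settings, among them edgeR (adjusted p = 0.0901) and limma-voom (adjusted p = 0.0777). It was also lost without any of the wt-GR TGFβ1 or S134A-GR vehicle replicates and without S134A-GR TGFβ1 replicate 2 or 3, with adjusted p from 0.0556 to 0.147. CCND3 and CDC25A were not called between the lines: CCND3 differed by −0.054 (95% interval −0.13 to 0.023) under vehicle and 0.0023 (interval −0.074 to 0.079) under TGFβ1, and CDC25A by 0.028 (interval −0.12 to 0.17) and 0.057 (interval −0.089 to 0.20). The 50 genes around CCND3 had medians of −0.22 and −0.27.

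**Figure D3:**
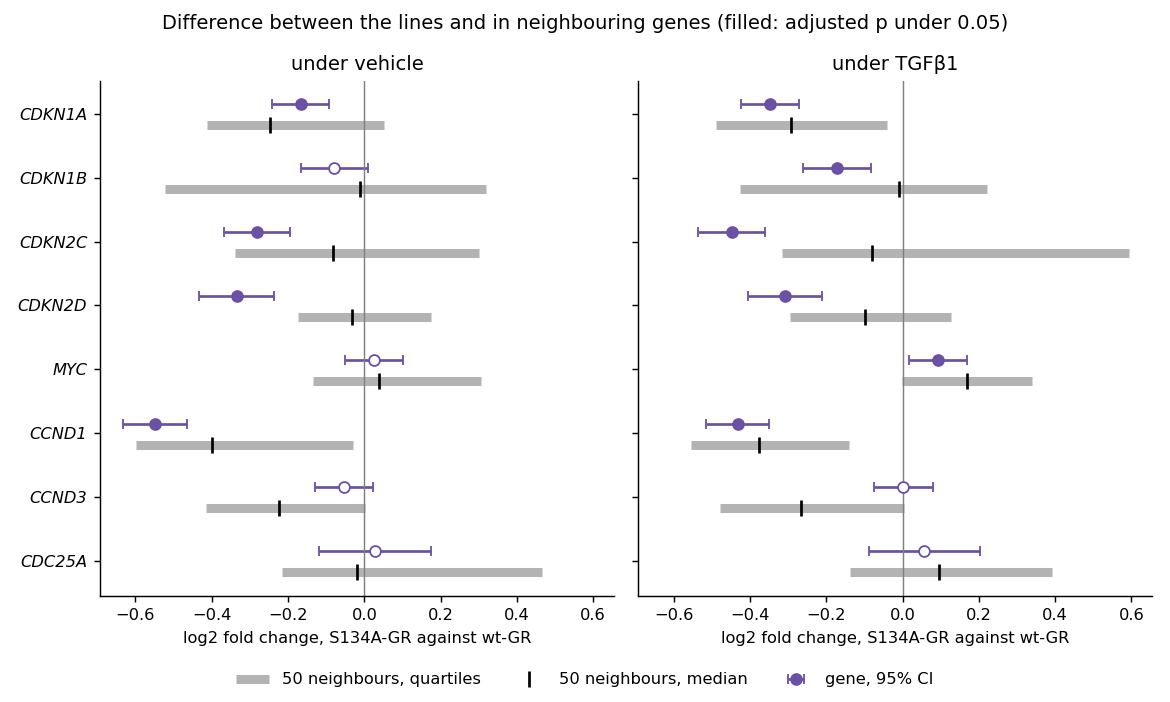
Log2 difference, S134A-GR minus wt-GR (x axis), under vehicle (left) and TGFβ1 (right) for 8 members (y axis). Purple points with bars are the gene and its 95% confidence interval, filled at an adjusted p under 0.05, and grey bars with a tick are the quartiles and the median of the 50 tested genes around it. CCND1 lies at −0.55 and −0.43 with a neighbour median of −0.40 and −0.38.

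Levels of different genes were compared per kilobase (kb) of annotated exon. In wt-GR cells under vehicle, CCND1 had 11702 normalized counts per kb, followed by CDKN2C with 3413, MYC with 2576, CDKN2D with 2235, CDKN1A with 2145, CCND3 with 1812, CDC25A with 695 and CDKN1B with 492. CDKN2D and CDKN1A were the only neighbours in that order whose libraries overlapped. Under TGFβ1, CDKN1A moved from the fifth place to the second in wt-GR cells, at 3755 normalized counts per kb, and CDKN2C fell to the fourth at 2745. In S134A-GR cells CDKN1A moved from the fourth place to the third, at 2951 normalized counts per kb, where its libraries overlapped with those of MYC at 3090. CDKN2D and CCND3 overlapped in S134A-GR cells under both treatments. Exon lengths were taken from GENCODE 44 over all annotated isoforms, so these levels depend on which isoforms the cells use.

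**Figure D4:**
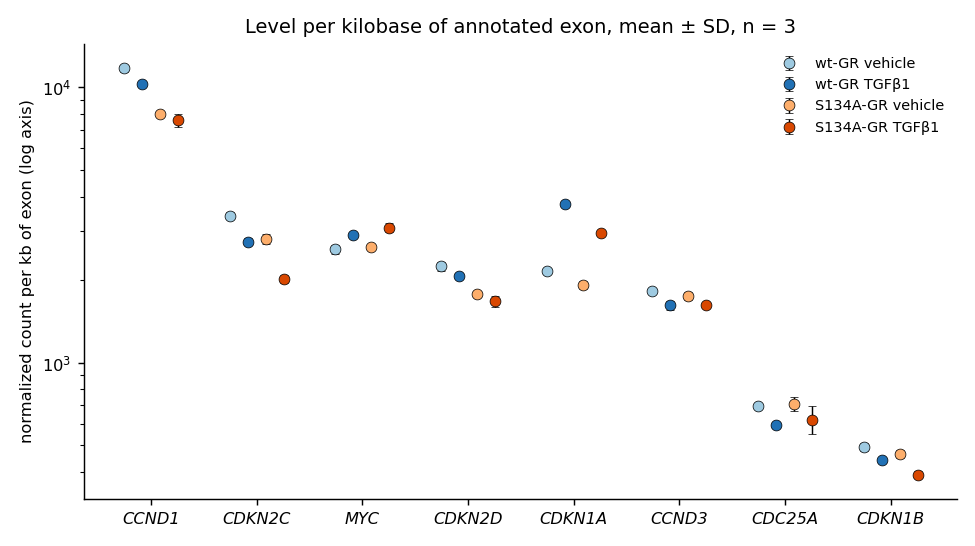
Normalized count per kb of annotated exon (y axis, log scale) of 8 members (x axis, in the order of wt-GR cells under vehicle) in the 4 groups, as mean ± SD (n = 3). CCND1 is the highest in every group, from 7577 to 11702 per kb, and CDKN1B the lowest, from 392 to 492. CDKN1C, at 1.36 to 14.4 per kb, is left out.

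Further genes of the pathway were taken from lists of textbook members, whose calls stand beside the same backgrounds as above. Of 29 tested CDKs, other cyclins and RB pathway genes, TGFβ1 raised 3 and lowered 7 in the wt-GR line and raised 4 and lowered 7 in the S134A-GR line. E2F2, an activator E2F, stood at 1112 ± 32.4 normalized counts under vehicle and 730 ± 87.1 under TGFβ1 in the wt-GR line (log2 fold change −0.61, limma adjusted p = 7.42e-04), and at 1170 ± 84.8 and 768 ± 115 in the S134A-GR line (−0.61, adjusted p = 8.24e-04). E2F1, another activator, changed by −0.28 and −0.22. E2F7, a repressor E2F, rose by 0.29 (adjusted p = 6.02e-04) and 0.44 (adjusted p = 1.39e-05). The number lowered in S134A-GR cells was 2 without S134A-GR vehicle replicate 1, 4 without S134A-GR vehicle replicate 3 and 3 without S134A-GR TGFβ1 replicate 2, and the number raised in wt-GR cells was 6 without wt-GR vehicle replicate 3. Scaled to library totals, 3 genes rose and 9 fell in S134A-GR cells.

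Between the lines, 12 of these 29 genes were higher and 6 lower in the S134A-GR line under vehicle, and under TGFβ1 the numbers were 11 and 5. The number higher was above the share of all genes, 25% under vehicle and 23.1% under TGFβ1. The number lower was below it, at 26.5% and 25.7% of all genes. CCND2, the remaining D-type cyclin, was at 245 ± 68.8 normalized counts for wt-GR and 925 ± 69.7 for S134A-GR under vehicle (log2 fold change 1.95, limma adjusted p = 1.07e-07), and at 196 ± 8.49 and 835 ± 41.5 under TGFβ1 (2.08, adjusted p = 6.01e-08). It was thus higher in the line in which CCND1 was lower. RB1 differed by −0.72 and −0.61 (adjusted p = 1.10e-08 and 6.18e-08). Genes around RB1 were not examined, its copy number was not measured, and the cause of this difference was not tested. CDK6, a kinase partner of the D cyclins, differed by −0.79 under vehicle (adjusted p = 9.41e-06) and by −0.39 under TGFβ1 (adjusted p = 0.00408).

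Of 11 tested partners of MYC in its network, 4 rose under TGFβ1 in the wt-GR line, and 5 rose and 1 fell in the S134A-GR line. MLXIP, a glucose sensor that pairs with MLX, rose by 0.56 and 0.56 (limma adjusted p = 5.94e-06 and 7.78e-06). MXD3, of the MXD family that competes with MYC for MAX, changed by −0.46 for S134A-GR (adjusted p = 0.00411) and by −0.11 for wt-GR (adjusted p = 0.504). In the S134A-GR line 3 rose without S134A-GR vehicle replicate 1 or 3 or S134A-GR TGFβ1 replicate 2, and in the wt-GR line 1 fell without wt-GR vehicle replicate 3. With totals, 2 rose in the wt-GR line, and 3 rose and 2 fell in the S134A-GR line. Between the lines, 4 were higher and 1 lower in the S134A-GR line under vehicle. The number lower was 3 without wt-GR vehicle replicate 3, and 2 with DESeq2 or filterByExpr or without wt-GR TGFβ1 replicate 1 or 3 or S134A-GR TGFβ1 replicate 1. Under TGFβ1, 5 were higher and 2 lower, and with totals 6 and 1. There 2 were higher without S134A-GR TGFβ1 replicate 2, 1 was lower without S134A-GR TGFβ1 replicate 1, and 3 were higher and 1 lower without wt-GR TGFβ1 replicate 3.

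Commonly used MYC target genes, most of them for ribosome production, rose under TGFβ1 in part. Of 15 tested, 9 rose in the wt-GR line and 10 in the S134A-GR line, with a median log2 fold change of 0.20 and 0.19, and none fell by limma, edgeR, DESeq2 or limma-voom or at an unadjusted p under 0.05. DKC1, the pseudouridine synthase of small nucleolar RNPs, rose by 0.34 and 0.30 (limma adjusted p = 3.41e-06 and 1.49e-05). RRS1, a ribosome assembly factor, rose by 0.35 for wt-GR (adjusted p = 0.00467) and was at 0.034 for S134A-GR (adjusted p = 0.829), a difference that was not called (−0.31, adjusted p = 0.362). Scaled to library totals, 6 rose and 1 fell in the wt-GR line and 4 rose in the S134A-GR line, where 6 rose when only the groups compared were fitted. Without wt-GR vehicle replicate 3, 1 fell in the wt-GR line. Between the lines, 6 were lower and 1 higher in S134A-GR cells under each treatment, and with totals 4 were lower under vehicle and 6 under TGFβ1, with 2 higher in each. NOP58, a core protein of small nucleolar RNPs, differed by −0.39 and −0.37 (adjusted p = 1.17e-06 and 2.21e-06). The 1 higher gene under vehicle was RRS1 (0.20, adjusted p = 0.0404), and none was called higher there with limma-voom, without wt-GR vehicle replicate 2, or without any of the wt-GR TGFβ1 or S134A-GR vehicle replicates.

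Among 18 E2F-regulated genes of S phase, 5 fell under TGFβ1 in the wt-GR line and 4 in the S134A-GR line, with medians of −0.092 and −0.061. None rose by limma, edgeR, DESeq2 or limma-voom, and at an unadjusted p under 0.05 there were 0 and 1. ORC1, of the origin recognition complex, fell by 0.19 and 0.24 on the log2 scale (limma adjusted p = 0.0102 and 0.00202), and MCM2, of the replicative helicase, changed by −0.18 and −0.15. With libraries scaled to totals, 12 fell in the wt-GR line and 8 in the S134A-GR line. Only 2 fell in the wt-GR line without wt-GR TGFβ1 replicate 1, and 1 rose in the S134A-GR line without S134A-GR TGFβ1 replicate 2. Between the lines, 4 were higher and 8 lower in the S134A-GR line under vehicle, and under TGFβ1 the numbers were 4 and 6. Scaling to totals gave 6 higher and 5 lower under vehicle and 5 higher and 3 lower under TGFβ1, so the side with more calls changed. RRM2, a subunit of ribonucleotide reductase, was at 25710 ± 451 normalized counts for wt-GR and 15583 ± 160 for S134A-GR under vehicle (log2 fold change −0.72, adjusted p = 4.54e-09). GINS2, of the GINS complex, was higher by 0.39 (adjusted p = 3.80e-06).

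None of 12 G2 and mitosis genes was called by limma under TGFβ1 in either line. At an unadjusted p under 0.05 there were 0 for wt-GR and 1 for S134A-GR, and edgeR, DESeq2 and limma-voom called 0 in both. With totals, 1 fell in the wt-GR line and 4 fell in the S134A-GR line. Without wt-GR vehicle replicate 3, 1 fell in the wt-GR line, and without S134A-GR TGFβ1 replicate 1, 2 fell in the S134A-GR line. Between the lines, 1 was higher and 1 lower in the S134A-GR line under vehicle, and 2 were higher and 3 lower under TGFβ1. BUB1, a kinase of the spindle checkpoint, differed by −0.23 and −0.18 (adjusted p = 2.85e-04 and 0.00203), and AURKB, a mitotic kinase, was higher by 0.15 and 0.17. MKI67, a marker of cycling cells, was higher by 0.47 under TGFβ1 (adjusted p = 0.0230). Under vehicle 2 were higher without wt-GR vehicle replicate 1, and 2 were lower with edgeR, DESeq2, limma-voom, TMM scaling or the stricter filterByExpr filter, and without wt-GR vehicle replicate 3, S134A-GR vehicle replicate 2 or S134A-GR TGFβ1 replicate 1 or 2. Under TGFβ1 only 1 was higher without any of the wt-GR TGFβ1 replicates or S134A-GR TGFβ1 replicate 1 or 3. With totals, 4 genes were higher in S134A-GR cells under each treatment.

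CDKN1A is also a target of p53, and 15 other p53 targets were set beside it. Under TGFβ1, 1 rose and 3 fell in the wt-GR line, and 1 rose and 4 fell in the S134A-GR line. DDB2, which recognises damaged DNA, was the one that rose: it stood at 2276 ± 79.7 normalized counts under vehicle and 4312 ± 225 under TGFβ1 for wt-GR (log2 fold change 0.92, limma adjusted p = 2.32e-08), and at 1782 ± 74.0 and 3063 ± 166 for S134A-GR (0.78, adjusted p = 1.58e-07). RRM2B, the p53-induced subunit of ribonucleotide reductase, changed by −0.36 and −0.24, and GADD45A, a stress-induced gene, by −0.31 and −0.27. MDM2, which targets p53 for degradation, was at −0.057 and 0.034 (adjusted p = 0.502 and 0.729). The number that fell in the S134A-GR line was 1 without S134A-GR vehicle replicate 2, and 2 without S134A-GR vehicle replicate 1, without any of the S134A-GR TGFβ1 replicates, or with only the groups compared. Between the lines, 4 were higher and 6 lower in the S134A-GR line under vehicle and 2 higher and 4 lower under TGFβ1, but with totals 6 were higher and 4 lower, and 5 higher and 2 lower. FAS, which encodes a death receptor, was higher by 0.91 and 0.96, and DDB2 differed by −0.35 and −0.49. The number higher under vehicle was 2 without S134A-GR vehicle replicate 2 or 3.

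Of 9 tested factors that act with SMADs at cytostatic genes, 1 rose and 3 fell under TGFβ1 in the wt-GR line, and 1 rose and 1 fell in the S134A-GR line. Of all genes, 11.2% rose and 9.82% fell in the wt-GR line, and 10% rose and 8.69% fell in the S134A-GR line. The number that rose was thus near this background in both lines. E2F4, a repressor E2F, rose by 0.24 and 0.26 (limma adjusted p = 0.00136 and 0.00102). FOXO4, a forkhead factor, changed by −0.20 (adjusted p = 0.0410) and −0.34 (adjusted p = 0.00225), and RBL1, which encodes p107, by −0.26 for wt-GR (adjusted p = 0.00865). In the wt-GR line only 1 fell with just the groups compared in the fit, or without wt-GR vehicle replicate 2, wt-GR TGFβ1 replicate 3 or S134A-GR vehicle replicate 1 or 3, and 2 rose with DESeq2 or without wt-GR TGFβ1 replicate 2 or S134A-GR TGFβ1 replicate 1. Without S134A-GR TGFβ1 replicate 1, 2 also rose in the S134A-GR line. With totals, 5 fell in the wt-GR line and 2 in the S134A-GR line. Between the lines, 3 were higher and 3 lower in the S134A-GR line under vehicle, and 2 higher and 1 lower under TGFβ1, and with totals 4 were higher and 1 lower, and 3 higher and 0 lower. CEBPB, a bZIP factor, was higher by 0.48 under vehicle (adjusted p = 5.79e-04) and 0.30 under TGFβ1 (adjusted p = 0.0175). Under vehicle 1 was lower without wt-GR or S134A-GR vehicle replicate 2. Under TGFβ1 1 was higher without wt-GR TGFβ1 replicate 2 or 3 or S134A-GR TGFβ1 replicate 3, and 0 were lower with just the groups compared, or without wt-GR TGFβ1 replicate 2 or 3 or S134A-GR TGFβ1 replicate 1 or 2.

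**Figure D5:**
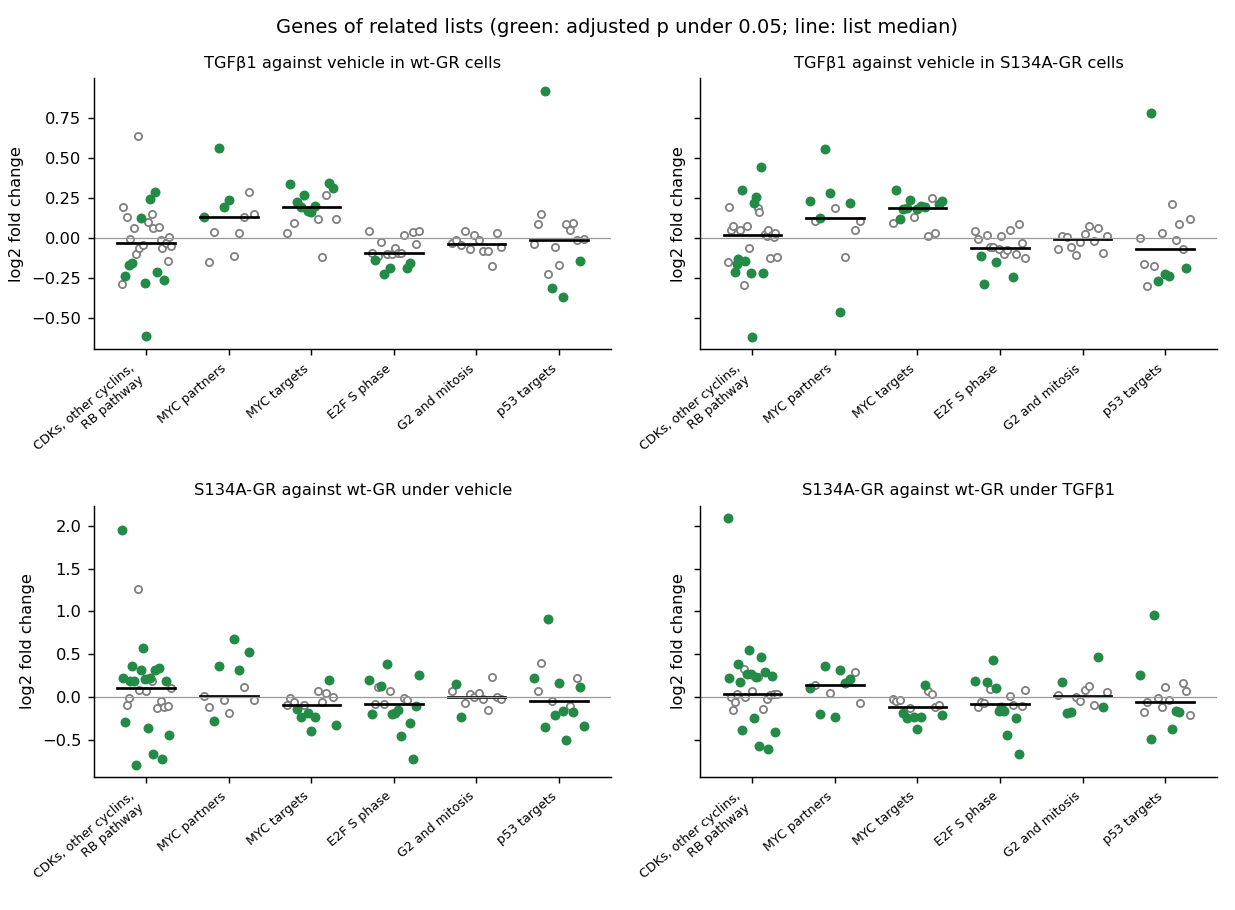
Log2 fold change (y axis) of each gene of 6 related lists (x axis) in the 4 comparisons named above the panels. Points are genes, green at an adjusted p under 0.05, and black lines are list medians. MYC targets have medians of 0.20 and 0.19 under TGFβ1 in the upper panels, and CCND2 is the highest point of the lower panels at 1.95 and 2.08.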

How the data were processed

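RNA-seq libraries were made from 12 samples in 4 groups, which were assigned from the labels. The authors used Trimmomatic, HISAT2 (build hg38) and featureCounts to get reads per gene, which they divided by DESeq2 size factors (version 1.22.2, per the submitters' processing notes). The deposited signal values are these normalized counts. The annotation and the strand setting are not given in the sources used here. Every value was a whole read after scaling (100% within 0.001), so reads were recovered. Genes with at least 10 reads in all were tested with limma 3.58.1 in R 4.3.3 on log2(normalized count + 1), fitting 4 group means over 12 libraries with a trended prior and Benjamini-Hochberg adjustment over 18579 genes. Of the tools, limma alone was tested on simulated data. Alternatives were edgeR 4.0.16, DESeq2 1.42.0 and limma-voom on recovered reads, other scalings, pseudocounts and filters, a replicate block, and leaving out each library. An exact permutation test of 3 against 3 cannot go below 0.1 and was not used. The members and lists were chosen with earlier results of these data known. Named genes were all members, genes among the 3 largest called changes of a list and comparison whose log2 CPM averaged 1 or more, genes at 0 in all libraries of the CDKN2B neighbour list, and the 3 genes most like CDKN1A. FOCAD and MDM2 were named outside this rule, after their values were seen. Positions came from GENCODE 44 and promoters from RefSeq (GRCh38.p14).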

Additional observations from a re-analysis of the deposited data

Results flagged for a closer look

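Among the genes used to check the treatment, the response to TGFβ1 differed between the lines by an interaction test for JUNB and PMEPA1. JUNB, an AP-1 subunit, responded by a log2 fold change of 2.01 in the wt-GR line and 1.09 in the S134A-GR line, a difference of −0.92 (limma adjusted p = 0.00164, lower response in S134A-GR). PMEPA1, an inhibitor of TGFβ signalling, responded by 2.90 and 2.18, a difference of −0.72 (adjusted p = 9.09e-04). No member of the set was called in this test. In groups of 3 libraries no test of single outlying libraries was made.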

How the results depend on the processing

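Over 45 results for single members and 23 alternatives, 975 of 1035 values kept their direction and their side of the threshold, 30 lost the call, 8 gained one and 22 changed direction, of which 0 were called. Requiring a log2 fold change of 1 or more left 0 members called in each of the 4 comparisons, in place of 7 and 5 for TGFβ1 in wt-GR and S134A-GR cells and 4 and 6 between the lines under vehicle and TGFβ1. Scaling to library totals gave 8 for TGFβ1 in S134A-GR cells and moved the median of all genes to −0.067, −0.076, 0.095 and 0.084 in these comparisons. Leaving out single libraries gave 5 to 7, 4 to 5, 4 to 4 and 5 to 6 members, and 0 to 0 for the difference between responses. No pairing of libraries by replicate number was seen. The mean correlation of deviations was −0.040 over 18 same-number pairs and 0.020 over 36 different-number pairs. That does not establish that replicates were unpaired. With the replicate block 7, 4, 4, 5 and 0 members were called. The calls of CCND3 for TGFβ1 in S134A-GR cells (limma adjusted p = 0.0519) and MYC between the lines under TGFβ1 (adjusted p = 0.0547) were lost.

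Changes of direction were as follows on the log2 scale, and the cause was not tested. Without single libraries, CDKN1C ranged from −1.97 to 1.53 for TGFβ1 in wt-GR cells, from −1.84 to 1.49 and from −2.38 to 0.87 between the lines under vehicle and TGFβ1, and from −2.39 to 1.11 for the difference between responses. With a pseudocount of 0.5 it was 0.026 between the lines under vehicle. CCND3 was 0.024 between the lines under vehicle with totals, and under TGFβ1 it was −0.0090 with edgeR, −0.0022 with DESeq2, −0.0062 with limma-voom, −0.0089 with TMM and −0.029 to 0.021 without single libraries. CDC25A ranged from −0.0045 to 0.074 and from −0.029 to 0.14 between the lines, and from −0.057 to 0.11 for the difference between responses, where CDKN2D ranged from −0.0057 to 0.055. Of 1840 list counts, 111 moved by over 1.5 times, 25 of them with totals. Counting error did not limit members other than CDKN1C.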
